A study of Coturnix japonica with 42 samples.

Results

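The comparison set the morning of the first long day against the morning of the short day before it, in the mediobasal hypothalamus of male Japanese quail. Arrays were chosen by their labelled time alone: 4 of the 42 arrays of the series came from hours 2 and 6 of the first long day (times 26 and 30 h), and 4 came from hours 2 and 6 of the short day (times 2 and 6 h), with 2 arrays per time. The labels give an age of 8 weeks and, before sampling, 4 weeks of days with 6 h of light and 18 h of darkness. The first long-day birds were in their first day with 20 h of light and 4 h of darkness, and the short-day birds were still on the 6 h schedule. Each array carried RNA pooled from 3 birds, out of 6 birds per time, so n counts pools. The labels do not say when the light came on. The labelled times were read here as counted from dawn of the short day. By that reading both groups had had the same light up to hour 6, which is when the short-day light ended, and the added light of the long day began after the hours compared. The comparison therefore gives the size and direction of differences that were already there before the light schedules parted, next to which the later differences can be read.

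The mediobasal hypothalamus is where birds turn day length into a reproductive response. Long days make the pars tuberalis, the part of the pituitary that wraps the hypothalamic stalk, release thyrotropin, built from an alpha subunit (CGA) and a beta subunit (TSHB). Thyrotropin acts on tanycytes, the cells lining the third ventricle, which then make more type 2 deiodinase (DIO2), the enzyme that activates thyroid hormone, and less type 3 deiodinase (DIO3), the enzyme that inactivates it.

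Signal is the brightness of a probe set on the authors' linear scale after each array was multiplied to 1 common trimmed mean, and differences are log2 of the first long-day level over the short-day level. The array carries chicken probes, and quail RNA that differs in sequence can give a dim signal. Both arrays of a morning time resembled each other about as much as both arrays of a time did over the series. Their Pearson's r lay between 0.890 and 0.904, against a median of 0.895 over all 21 times. These values do not compare arrays between times or between the mornings. Neuron and hypothalamic transcripts were bright on both mornings. SNAP25, a synaptic vesicle fusion protein, averaged 6044 on the first long-day morning and 5999.9 on the short-day morning. PENK, which encodes enkephalin peptides, averaged 2915 on the first long-day morning and 2923 on the short-day morning. Before scaling, the trimmed mean was 31.9 ± 3.42 on first long-day arrays and 37.1 ± 3.63 on short-day arrays (SD, n = 4 each, exact two-sided permutation p = 0.143, with 0.0286 the smallest that 4 against 4 can give). None of the 6 quality measures separated the mornings by that test.

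The comparison called few probe sets, but its median 95% interval reached 0.941 log2 to either side, so few calls do not show likeness. Of 32057 probe sets tested, 1 differed at an adjusted p under 0.05, or 0.00312% (limma, Benjamini-Hochberg over all probe sets). It was a probe set of LOC427439, a chicken locus known here by its number alone, and it was lower on the first long-day morning. At an unadjusted p under 0.05, 1704 probe sets differed, or 5.32%, with 1000 higher (3.12%) and 704 lower (2.2%). Counted once per gene by the brightest probe set, 714 of 12311 genes did, or 5.8%, of which 357 were higher and 357 lower, or 2.9% each way.

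The 8 arrays give a yardstick for that size, because hour 6 can be set against hour 2 over both mornings with the same arrays and the same standard error. The median absolute difference was 0.251 log2 between the days and 0.240 log2 between the hours, each beside a median standard error of 0.464. Differences over 1 log2 were found in 1330 probe sets (4.15%) between the days and in 1233 (3.85%) between the hours. The hour comparison called 0 probe sets by limma's adjusted p and 1385 (4.32%) at an unadjusted p under 0.05. The typical size was thus about the same a day apart and 4 h apart. With both medians below the standard error, size alone could hardly tell the comparisons apart. At a limma unadjusted p under 0.001 there were 53 probe sets (0.165%) between the days and 21 (0.0655%) between the hours. The distribution of differences between the days was shifted slightly to higher values.

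**Figure D1:**
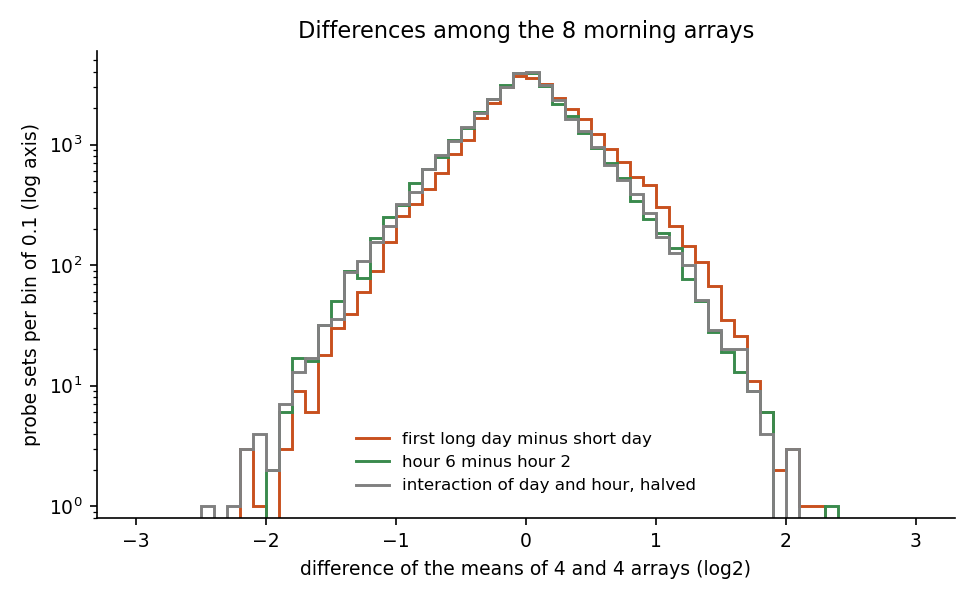
The x axis gives log2 differences in bins of 0.1 over 32057 probe sets and the y axis, on a log scale, the probe sets per bin, for the first long day minus the short day, for hour 6 minus hour 2, and for the interaction of day and hour scaled to the same standard error. The 3 outlines nearly coincide, with 1330, 1233 and 1215 probe sets beyond 1 log2, and the day outline lies further right.

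The direction of the whole shift depended on the scaling. As scaled here, 58.7% of the probe sets with an unadjusted p under 0.05 were higher on the first long-day morning, and the median difference over all probe sets was 0.04. With the values as deposited that share was 14.9% (435 higher, 2481 lower) and the median was -0.15. With arrays centred on their median the share was 30.8% (612 higher, 1374 lower), and with quantile normalization it was 49.5% (830 higher, 846 lower). No direction for the transcriptome as a whole is therefore given, and the genes below are read by size and by their own arrays.

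Precision depended on brightness. Among the brightest 25% of probe sets, those above a signal of 36.6, the median absolute difference was 0.131 log2 and the median 95% interval reached 0.382 log2 to either side. In the next dimmer 25%, it was 0.253 log2, and in the dimmer 2 groups it was 0.388 and 0.334 log2. The brightest group also held the largest share of small p-values: 575 of its 8014 probe sets (7.17%) had an unadjusted p under 0.05, of which 211 were higher and 364 lower, against 4.68% between the hours. That share stood at 7.51% for hour 2 of the first long day against hour 2 of the short day, and at 4.08% for hour 6 against hour 6. With quantile normalization the brightest group had 6.85% (263 higher, 286 lower). With the values as deposited it had 20.7% (24 higher, 1637 lower), and with arrays centred on their median 10.5% (54 higher, 786 lower). As deposited, its share was 6.78% at hour 2 and 17.9% at hour 6. The order of the hours therefore depended on the scaling.

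LOC427439 stood apart on all 8 arrays. Given in the order hour 2, hour 2, hour 6, hour 6, which is kept below, its signal was 205, 224, 266 and 230.2 on the first long-day arrays, against 514, 429, 349 and 314 on the short-day arrays. It averaged 232 ± 25.7 on the first long-day morning and 402 ± 89.0 on the short-day morning (SD, n = 4 each). Every first long-day array was below every short-day array. The difference was -0.78 log2 (95% interval -1.01 to -0.54), or 1.71-fold lower, with a limma adjusted p of 0.00182. It was -1.13 at hour 2 (limma adjusted p = 0.000949), where this was the 1 called probe set and 1694 (5.28%) had an unadjusted p under 0.05, and -0.42 at hour 6, where limma called 0 probe sets by adjusted p and 1426 (4.45%) by unadjusted p. The test of the change between the hours gave 0.71 log2 with a limma adjusted p of 1. That p is adjusted over all probe sets and does not show that the difference was the same at both hours. The separation was not limited to the mornings: the 12 short-day arrays ran from 247 to 514 with a median of 309, the 18 first long-day arrays from 184 to 283 with a median of 223, and the 12 arrays of the day after from 144 to 211 with a median of 187. Over hours 10 to 22 the difference was -0.47 log2 (limma adjusted p = 0.00294). That later call was kept in 6 of 9 other settings, with a limma adjusted p of up to 0.153. The morning call was lost without the first array of time 6 (limma adjusted p = 0.0564), with no variance trend (0.114) and with only these 8 arrays in the fit (0.691). The call at hour 2 was lost without the first array of time 2 (adjusted p = 0.0543). The other 2 probe sets of the locus differed by -0.25 and 0.13 log2, neither called.

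ALB, which encodes serum albumin, had the largest difference in size among the 10 genes lowest by limma's statistic. Its signal was 9.25, 11.9, 7.60 and 7.93 on the first long-day arrays, against 43.1, 73.6, 23.2 and 38.7 on the short-day arrays. The groups did not overlap, and the highest first long-day array lay below the lowest short-day array. The difference was -2.19 log2 (95% interval -3.11 to -1.26), or 4.55-fold lower, but its limma adjusted p was 0.182 and passed only with the values as deposited (0.0208). On the short day ALB reached 479 and 164 at hour 22, the last sampling before the first long day. All 18 first long-day arrays lay between 3.60 and 18.3, and all 12 short-day arrays between 20.3 and 479. The later hours differed by -3.06 log2 (limma adjusted p = 2.86e-07), and the test of later hours against morning gave -0.87 log2 (95% interval -2.00 to 0.26, adjusted p = 0.999). TTR, the thyroid hormone carrier transthyretin, had 23.4, 16.6, 27.1 and 19.6 on the first long-day arrays, against 22.9, 36.1, 15.02 and 67.2 on the short-day arrays. The 2 groups of TTR values overlapped, with a difference of -0.50 log2 (limma unadjusted p = 0.208). Of 25 measured secreted and carrier proteins of plasma, 8 were higher and 17 lower with a median of -0.06, against a median of 0.01 over all genes. ALB was the 1 member with an unadjusted p under 0.05, against 5.8% of all genes. Bulk tissue cannot tell fewer cells of a type from less RNA per cell.

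Further genes at the low end are given as a description, since limma's adjusted p passed for none of them as scaled here. With the values as deposited, where all differences shift down, ZBTB20, BRINP1, MRPL32 and CACFD1 of the genes below were called as well. Non-overlap of the 4 and 4 arrays was found for 477 of the 12311 genes, or 3.87%. ZBTB20, a zinc finger repressor, had 199, 326, 331 and 285 on the first long-day arrays, against 463, 436, 487 and 491 on the short-day arrays. Its difference was -0.75 log2 (adjusted p = 0.197), and its other probe set, at -0.33 log2, had an unadjusted p of 0.0144. Both probe sets may target the same sequence. Without the array of time 26 labelled replicate 2, the brighter ZBTB20 probe set differed by -0.92 log2. That fit leaves 1 array at time 26, so its p is not read. ZHX2, a zinc finger and homeobox repressor, had 83.6, 87.9, 113 and 89.9 on the first long-day arrays, against 131, 182, 148 and 139 on the short-day arrays, or -0.68 log2. Both genes were lower on all 4 first long-day arrays.

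BRINP1, a neuronal protein that restrains the cell cycle, had 419, 433, 541 and 443 on the first long-day arrays, against 928, 796, 699.9 and 544 on the short-day arrays (-0.67 log2, limma adjusted p = 0.260). ARL3, a small GTPase of cilia, had 705, 614, 789 and 673 on the first long-day arrays, against 915, 939, 890.3 and 819 on the short-day arrays (-0.36 log2). ASAP2, a GTPase-activating protein of the Arf family, differed by -0.68 log2 and DIP2B by -0.50 log2, again without overlap. MRPL32, a protein of the mitochondrial ribosome, and CACFD1 were lower on average by -0.83 and -1.74 log2, but their arrays overlapped. CACFD1 had 67.5, 9.98, 38.6 and 4.60 on the first long-day morning and 76.9, 54.2, 63.3 and 55.8 on the short-day morning. Its 2 lowest arrays were replicate 2 of each time. The difference was -2.43 log2 without replicate 1 of time 26 and -2.50 log2 without replicate 1 of time 30. Each of these fits drops the higher of 2 discordant arrays and leaves 1 array at that time, so its p is not read.

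At the high end TTC19, which helps assemble respiratory complex III, had 94.2, 115, 110.3 and 93.5 on the first long-day arrays, against 51.7, 66.7, 66.9 and 84.2 on the short-day arrays. The groups did not overlap, and the difference of 0.63 log2 had a limma adjusted p of 0.197. PHGDH, the first enzyme of serine synthesis, had 31.9, 35.5, 44.9 and 36.7 on the first long-day arrays, against 1.22, 19.0, 19.3 and 6.16 on the short-day arrays (1.97 log2, adjusted p = 0.511). ACLY, which makes acetyl-CoA for lipid synthesis, had 62.8, 50.4, 45.8 and 57.3 on the first long-day arrays, against 36.9, 33.3, 29.0 and 34.2 on the short-day arrays (0.69 log2). All 3 genes were higher on every first long-day array, and 1 short-day value of PHGDH lay under the floor of 3.51 to which low signals were raised.

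MFSD2A, the transporter of lysolipids at the blood-brain barrier, had 45.7, 69.7, 63.6 and 66.0 on the first long-day arrays, against 37.0, 29.9, 41.5 and 32.9 on the short-day arrays (0.79 log2, limma adjusted p = 0.726). GREM1, a secreted antagonist of bone morphogenetic proteins, had 28.3, 27.5, 17.2 and 28.0 on the first long-day arrays, against 5.42, 8.89, 16.3 and 2.79 on the short-day arrays (1.77 log2, adjusted p = 0.600). Neither group pair overlapped. GREM1 was -1.13 log2 over the later hours, and its difference between later hours and morning, -2.90 log2, had a limma adjusted p of 0.238. IL4, a cytokine, FSTL1, a secreted glycoprotein, SSX2IP, a centrosomal protein, and C2CD5, a protein of glucose transporter traffic, were between 1.04 and 1.79 log2 higher without overlap. CATSPER4, a subunit of the sperm calcium channel, and FAM135B, at 0.76 and 1.33 log2, overlapped.

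**Figure D2:**
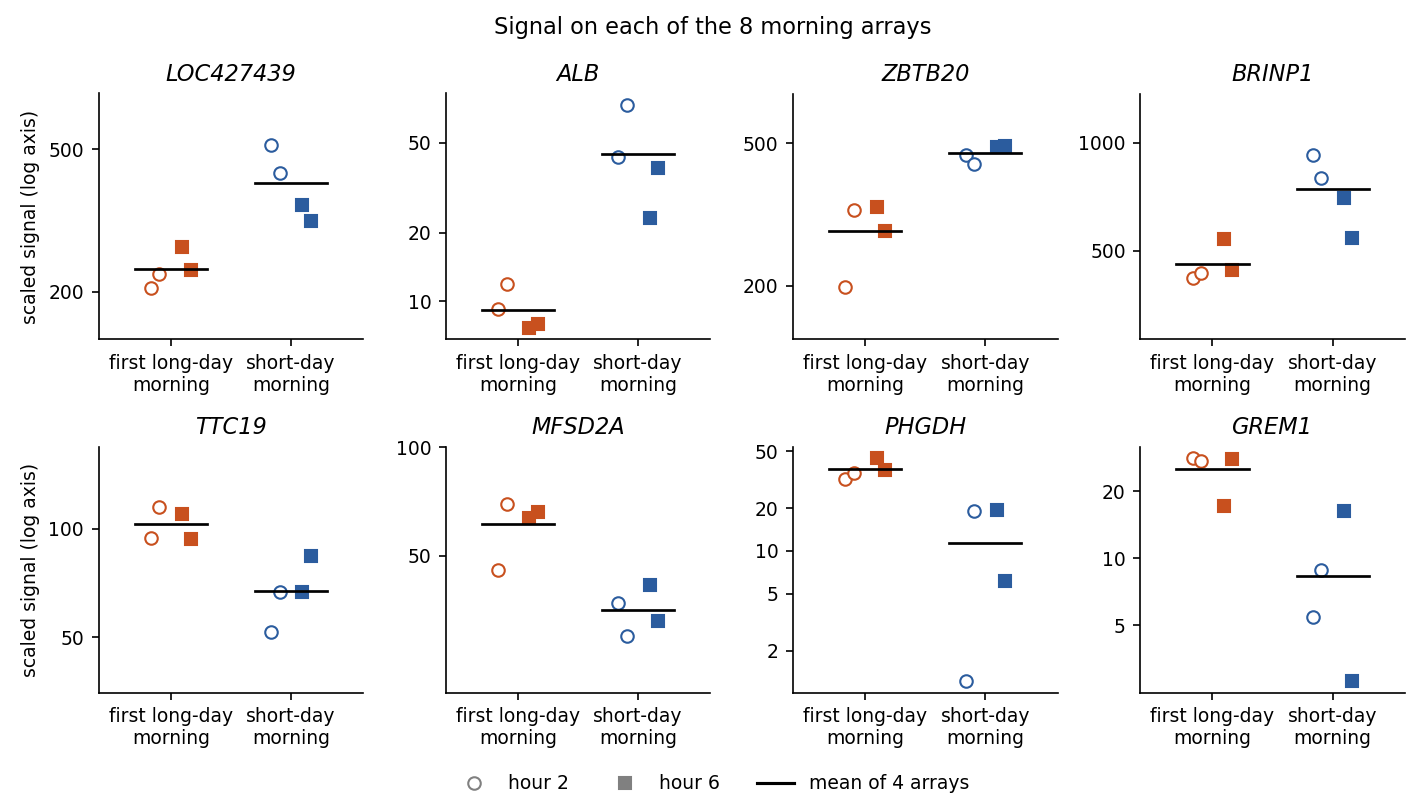
Each panel shows 1 gene, with scaled signal on a log axis, the 4 first long-day arrays on the left and the 4 short-day arrays on the right, open circles for hour 2, filled squares for hour 6 and a line at the mean of 4 arrays. The groups do not overlap in any of the 8 panels, and of these genes LOC427439 alone passed the adjusted threshold. The panels show genes named from these same arrays, and named genes that overlap, such as CACFD1, are not drawn.

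A gene with several probe sets offers a check within the same arrays. For 3072 genes with at least 2 probe sets above a signal of 14.3, the correlation of the day difference between the brightest and the next brightest probe set was 0.07 (Pearson, across genes, which share arrays and are not independent). For the hour difference it was 0.05 and for the later hours 0.08. Where the brightest probe set had an unadjusted p under 0.05, the other had the same sign in 113 of 210 genes (53.8%) between the mornings, against 174 of 262 (66.4%) over the later hours. Over all 3072 genes, whatever their p, the sign was shared by 53.4% between the mornings and by 53.3% over the later hours. The morning share was thus near that of all genes. Both probe sets had an unadjusted p under 0.05 in the same direction for 15 of these 210 genes between the mornings. This held for 2 of 140 between the hours and for 28 of 262 over the later hours. Of all genes, 2.9% had such a p each way between the mornings, so some of the 15 would be found without any shared difference. Some pairs, such as those of ZBTB20 and GNAS, have names built on the same number. They may target the same sequence, so they may not be separate measurements. ZBTB20 was among the 15, as were GNAS, the stimulatory G protein alpha subunit, at -0.28 and -0.37 log2, and GRIA3, a subunit of glutamate receptors, at -0.34 and -0.50 log2. SYT1, the calcium sensor of transmitter release, was among the 5 of them that were higher, at 0.27 and 0.40 log2.

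No measured gene of the thyrotropin and thyroid hormone pathway passed the adjusted threshold between the mornings. Of 24 measured, 17 were higher and 7 lower as scaled here, with a median of 0.14 log2. With the values as deposited 8 of 24 were higher (median -0.08), and with arrays centred on their median 12 of 24 (median 0.02). At an unadjusted p under 0.05 there was 1 of the 24, against 5.8% of all genes. That gene was TSHB, with 12.5, 6.97, 24.1 and 7.46 on the first long-day arrays, against 3.10, 8.62, 5.30 and 4.69 on the short-day arrays. The values overlapped, with 1 short-day array above 2 of the first long-day ones. The difference was 1.09 log2 (95% interval 0.28 to 1.90, limma unadjusted p = 0.00948, adjusted p = 0.833), beside 2.83 log2 over the later hours (10, 14, 18 and 22). The interval of the contrast of later hours with morning was 0.75 to 2.73 log2 (adjusted p = 0.926).

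Of 10 measured markers of the anterior pituitary, TSHB included, 9 were higher and 1 lower as scaled here, with a median of 0.22 log2. With the values as deposited 6 of 10 were higher and the median was 0.04. TSHB and GH, or 2 of the 10, had an unadjusted p under 0.05, against 5.8% of all genes. None of the 10 passed the adjusted threshold, and none separated the groups. GH, growth hormone, had 21.6, 27.2, 20.0 and 18.2 on the first long-day arrays, against 20.1, 7.36, 2.65 and 8.09 on the short-day arrays (1.42 log2, limma unadjusted p = 0.0165). The mean of the list on the log2 scale ran from 5.18 to 5.67 on first long-day arrays and from 4.68 to 5.28 on short-day arrays, and its summed signal from 1239.7 to 1774 and from 1167 to 1683. POU1F1, the factor that specifies the cells making growth hormone, prolactin and thyrotropin, was dim, at a mean of 7.56 on first long-day arrays and 7.24 on short-day arrays. The part of these markers in the TSHB value was not tested.

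CGA, the alpha subunit, differed more between the hours than between the days. Its signal was 659, 731, 1109 and 1079.7 on the first long-day arrays, against 730.2, 584, 1176 and 1065 on the short-day arrays. The day difference was 0.03 log2 (95% interval -0.34 to 0.39), and hour 6 exceeded hour 2 by 0.72 log2 over both mornings (limma unadjusted p = 0.000302, adjusted p = 1). DIO2 likewise had 58.7, 60.9, 41.6 and 35.8 on the first long-day arrays, against 50.9, 68.6, 43.8 and 24.96 on the short-day arrays, a day difference of 0.12 log2 and an hour difference of -0.73 log2 (unadjusted p = 0.00322). DIO3 had 287, 363, 348 and 318 on the first long-day arrays, against 321, 257, 351 and 224 on the short-day arrays, which overlapped (0.21 log2, 95% interval -0.36 to 0.78). The TSH receptor (TSHR) differed by 0.16 log2, the thyroid hormone transporter SLCO1C1 by 0.16 log2, and EYA3, a coactivator linked to TSHB induction in sheep, by 0.35 log2, none with an unadjusted p under 0.05.

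**Figure D3:**
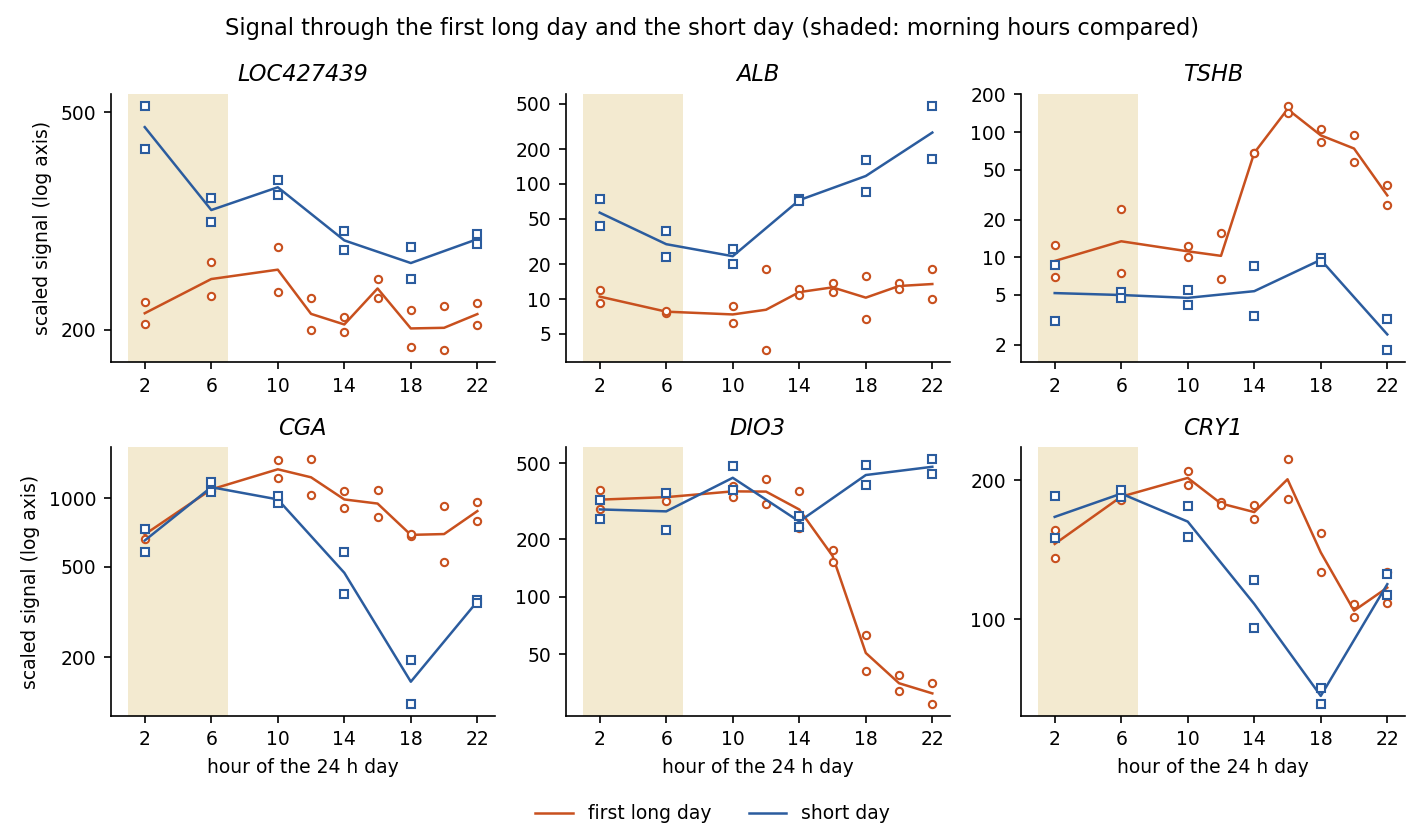
Scaled signal on a log axis is drawn against hour of the 24 h day for 6 genes, with circles for the first long day, squares for the short day, both arrays of each time as points and a line through their geometric means; shading marks the hours compared. CGA, DIO3 and CRY1 overlap in the shaded hours and part at later ones, whereas LOC427439 and ALB are apart at every hour sampled on both days.

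Core clock genes held the largest share of small p-values among the lists of regulators. Of 16 measured, 9 were higher and 7 lower (median 0.11 log2), 6 had an unadjusted p under 0.05, against 5.8% of all genes, and none passed the adjusted threshold. The 6 went in both directions, 3 higher and 3 lower. With the values as deposited 6 of 16 clock genes were higher (median -0.11), and 5 had an unadjusted p under 0.05, against 9.10% of all probe sets. With arrays centred on their median 8 of 16 were higher (median -0.02), and 4 had such a p, against 6.20%. RORA, a nuclear receptor that activates the clock gene ARNTL, had 197, 176, 200.3 and 186 on the first long-day arrays, against 263, 245, 247 and 250.0 on the short-day arrays, without overlap (-0.40 log2, limma adjusted p = 0.725). The repressors BHLHE41 and CRY2 were also lower, by -0.24 and -0.43 log2. CLOCK and NPAS2, alternative partners of ARNTL, were higher by 0.39 and 0.81 log2 by limma's fit. RORB, a nuclear receptor of the same family as RORA, had 7.87, 15.7, 15.1 and 1.64 on the first long-day arrays, against 0.788, 2.93, 1.27 and 0.942 on the short-day arrays. All 4 short-day values and 1 first long-day value lay under the floor of 3.51, so its fitted 1.36 log2, and its place among the 6, depend on the floor.

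Other clock genes had day differences whose limma unadjusted p was above 0.05. CRY1, a core repressor, had 156, 136, 188 and 181 on the first long-day arrays, against 185, 150.5, 184 and 190.4 on the short-day arrays. Its day difference was -0.11 log2 (95% interval -0.36 to 0.15), and its later-hours difference was 0.50 log2 (limma adjusted p = 0.00557). NR1D2, a repressor of ARNTL, differed by 0.06 log2 between the days and by -0.57 log2 between the hours (unadjusted p = 0.00247). PER2, a repressor of the clock, differed by 0.37 log2 between the days and -0.05 log2 between the hours, and ARNTL, the partner of CLOCK, by 0.15 and 0.45 log2, with overlapping arrays.

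As scaled here, immediate early and stress genes showed no common direction between the mornings. Of 16 immediate early genes, 10 were higher and 6 lower (median 0.09 log2). At an unadjusted p under 0.05 there were 3 of the 16, against 5.8% of all genes, 1 higher and 2 lower. EGR1, an activity-induced transcription factor, had 1059.7, 1379, 777 and 781 on the first long-day arrays, against 819, 931, 683 and 802 on the short-day arrays (0.27 log2, limma unadjusted p = 0.0443). The higher EGR1 values were those of hour 2. HOMER1, a scaffold of the synapse, was at -0.30 log2 with overlapping arrays, and ATF3, a stress-induced transcription factor, at -1.14 log2. ATF3 had 5.24, 4.54, 7.44 and 4.07 on the first long-day arrays, against 12.9, 11.7, 13.5 and 8.42 on the short-day arrays, without overlap. Of 26 measured chaperones and partners of the endoplasmic reticulum, 11 were higher and 15 lower with a median of -0.05 log2, and the 4 with an unadjusted p under 0.05 (against 5.8% of all genes, 2.9% lower), ERP29, SEC61A1, XBP1 and CALR, were lower, at -0.60, -0.53, -0.41 and -0.36 log2. Over the later hours 24 of the 26 were higher, with a median of 0.19. HSP90B1, the chaperone GRP94, had 1119, 989, 1238 and 1267 on the first long-day arrays, against 917, 1198, 1476 and 1376 on the short-day arrays (-0.09 log2, 95% interval -0.34 to 0.16). Of 25 cytosolic heat shock genes, 11 were higher and 14 lower (median -0.01), with 0 at an unadjusted p under 0.05. The counts depended on the scaling. With the values as deposited, 5 of 16 immediate early, 5 of 26 endoplasmic reticulum and 2 of 25 heat shock genes were higher. With arrays centred on their median, 7 of 16, 6 of 26 and 3 of 25 were higher.

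As scaled here, neuropeptide and most cell type lists had medians within 0.14 log2 of 0. The endothelial and anterior pituitary lists had the highest medians of all lists. Of 28 hypothalamic neuropeptides and processing enzymes, 11 were higher and 17 lower (median -0.04). NPY, which stimulates feeding, had 1906, 2403, 2727 and 2932 on the first long-day arrays, against 2082, 2119.7, 1889 and 2087 on the short-day arrays (0.27 log2, limma unadjusted p = 0.0278). TAC1, which encodes substance P, had 788, 780.1, 1181 and 1329 on the first long-day arrays, against 1184, 2259.7, 1014 and 1610.5 on the short-day arrays (-0.54 log2, unadjusted p = 0.0208). Both overlapped between the mornings.

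Of 22 endothelial and mural genes, 18 were higher and 4 lower with a median of 0.24 log2. MFSD2A was the 1 member with an unadjusted p under 0.05, against 5.8% of all genes. The median of the endothelial list was 0.19 under quantile normalization (17 of 22 higher) and 0.03 with the values as deposited (11 of 22 higher). The anterior pituitary list, at 0.22 log2, came next, and was 0.19 (9 of 10 higher) and 0.04 (6 of 10 higher) under the same settings. Beside them, the median over all probe sets between signals of 7.66 and 14.3, whatever their gene, was 0.14 log2. It was 0.08 log2 for probe sets between 14.3 and 36.6, and -0.02 log2 for those above 36.6. The mean log2 level of the endothelial list was 5.01 on first long-day arrays and 4.78 on short-day arrays. That of the anterior pituitary list was 5.39 and 5.01. Such a mean does not show how bright single members were, and the part of dim members in the list medians was not tested. The summed signal of the endothelial list ran from 1088 to 1236 on first long-day arrays and from 980.2 to 1137 on short-day arrays. Fibroblast and meningeal genes had 7 of 20 higher and a median of -0.13, neuron genes 9 of 19 higher and 0.00, astrocyte genes 8 of 13 and 0.06, oligodendrocyte genes 9 of 13 and 0.06, tanycyte and ependymal genes 13 of 19 and 0.12, microglial and leukocyte genes 10 of 18 and 0.09, erythrocyte genes 8 of 11 and 0.10, and choroid plexus genes 9 of 15 and 0.04. The tanycyte and ependymal count fell to 7 of 19 with the values as deposited and 9 of 19 with arrays centred on the median. Of the ribosomal protein genes, 32 of 50 were higher, with a median of 0.05. But 7 of 50 were higher with the values as deposited (median -0.17) and 12 of 50 with arrays centred on the median. The respiratory chain (15 of 38 higher), proteasome (12 of 26), sterol synthesis (10 of 15, median 0.19), cell cycle (16 of 24), cold-inducible RNA binding (4 of 10) and pineal and photoreceptor lists (7 of 14) had 0 members past the adjusted threshold.

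**Figure D4:**
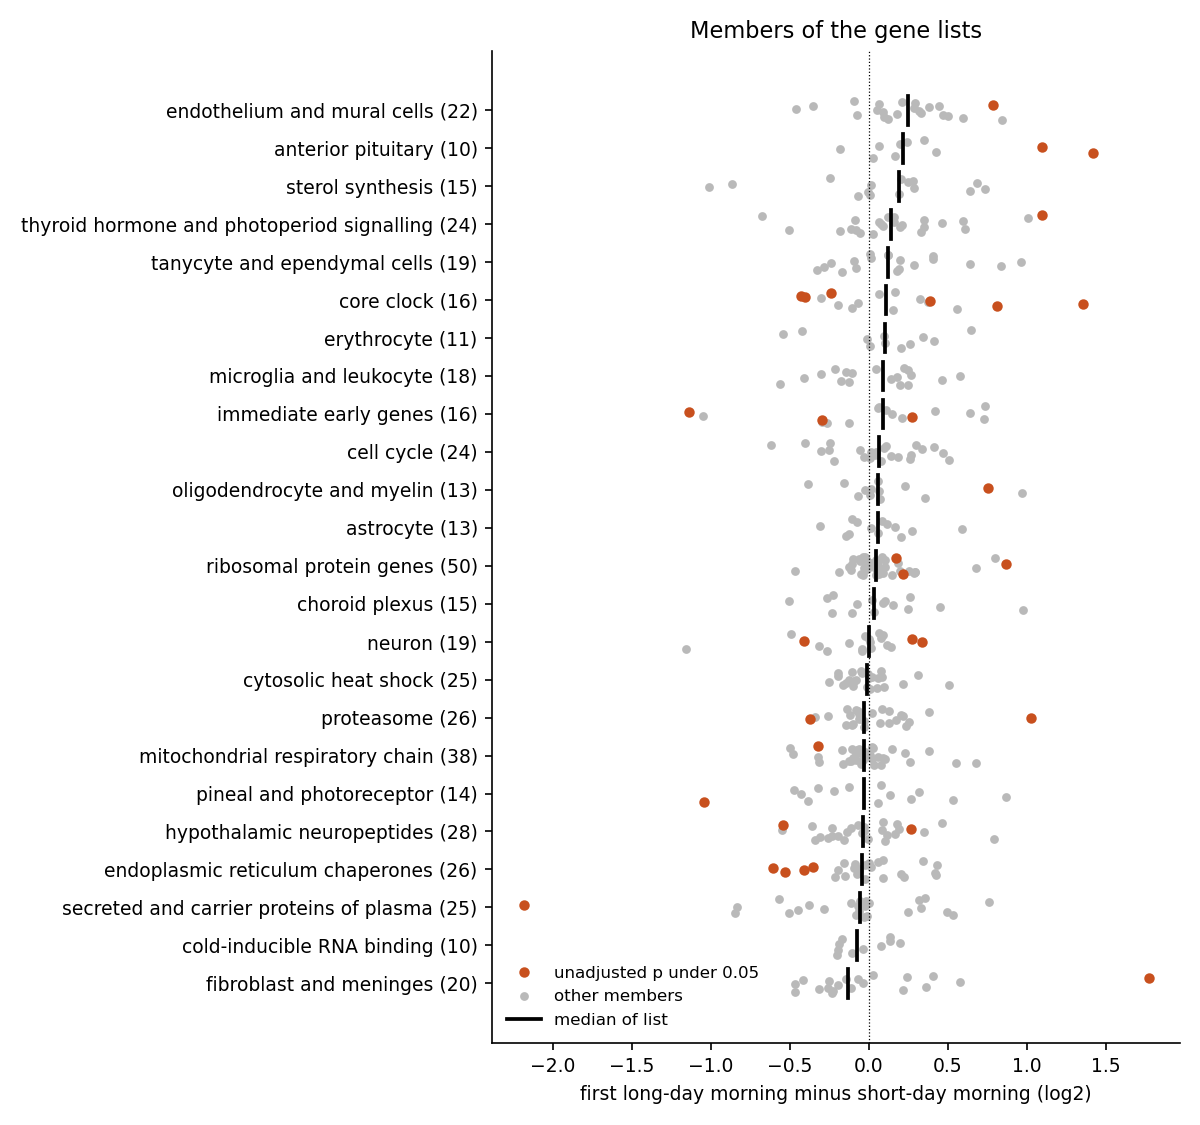
Each row is 1 gene list with its number of measured genes, each point a gene at its log2 difference between the first long-day and the short-day morning, orange where the unadjusted p was under 0.05, and the bar is the median. List medians run from -0.13 to 0.24 log2, and single genes spread far more widely than the medians.

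The genes called later in the day were looked up in the morning. Over hours 10 to 22, sampled on 8 arrays against 8 that share none with the mornings, 18 probe sets were called (0.0561%), which stand for 15 gene symbols and 2 probe sets without one. These genes are known from these same arrays, so their later values are given as a description. In the morning, 14 of the 18 had a 95% interval that held 0. An unadjusted p under 0.05 was found for 4 (22.2%), against 5.32% of all probe sets and 7.17% of the brightest group. These 4 were TSHB, ALB, EGR1 and LOC427439. Although the arrays differ, both comparisons took their spread from the same fit. Probe sets picked by a small later p therefore tend to have a small spread, which can also make their morning p small. The 22.2% is thus not read as a link between morning and later differences.

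The test of later hours against morning called 2 probe sets (0.00624%). DIO3 was -1.77 log2 over the later hours, and the contrast with the morning was -1.98 log2 (95% interval -2.68 to -1.28, limma adjusted p = 0.0475). CGA was 1.24 log2 over the later hours, with a contrast of 1.21 log2 (95% interval 0.77 to 1.66, adjusted p = 0.0475). Both calls were close to the threshold: DIO3 kept its call in 2 of 9 other settings and CGA in 1 of 9, and on leaving out 1 array they kept it in 4 of 24 and 3 of 24 fits. The estimates stayed between -2.14 and -1.75 for DIO3 and between 1.13 and 1.44 for CGA. CREM, a cyclic AMP responsive transcription factor, and HSP90B1 had contrasts of 0.77 and 0.70 log2 (adjusted p = 0.238 each), DIO2 0.92, CRY1 0.60 and TTR -1.37 log2, none called.

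**Figure D5:**
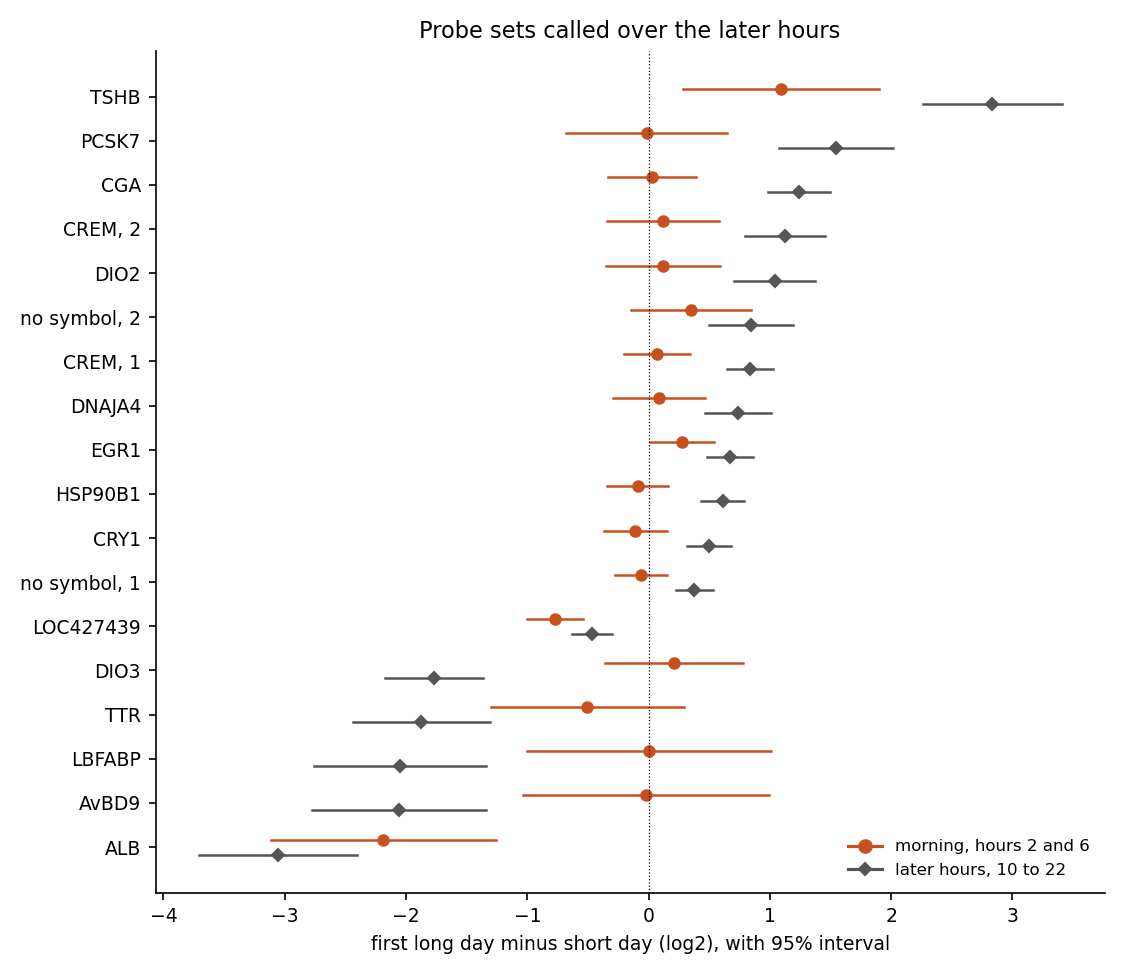
For the 18 probe sets called over the later hours, circles give the morning difference and diamonds the later-hours difference, first long day minus short day in log2, with 95% intervals from limma; symbols with several probe sets are numbered. The morning intervals of 14 hold 0, and those of ALB and LOC427439 lie well below it.

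Whether the day difference depended on the hour was tested with little precision, since the median 95% interval of the interaction reached 1.88 log2 to either side. The interaction of day and hour called 1 probe set (0.00312%), with 1306 (4.07%) at an unadjusted p under 0.05. It belonged to WDR61, a component of complexes that act on transcription and RNA decay, with 177, 86.7, 67.6 and 32.4 on the first long-day arrays, against 36.0, 9.89, 207 and 191 on the short-day arrays. This probe set was higher at hour 2 than at hour 6 on the first long day, and the reverse on the short day. Its arrays also differed widely within some other times, with 32.3 and 202 at time 44. The interaction was -4.80 log2 (limma adjusted p = 0.0449), was kept in 2 of 9 other settings and on leaving out 2 of 8 single arrays, and was -0.03 and -0.26 log2 on the other 2 probe sets of the gene.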

How the data were processed

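RNA of the mediobasal hypothalamus was hybridised to Affymetrix chicken genome arrays, 42 arrays in all. The authors deposited 1 linear intensity per probe set and array, computed in GCOS 1.2 per the submitters' processing notes. Detection calls were not used here. From these values, each array was multiplied to 1 trimmed mean (2% trimmed), signals under 3.51 were raised to that floor, and log2 was taken. The 96 control probe sets were left out, and 32057 of 38439 others were kept, being above the median of their array on at least 2 arrays. Limma 3.58.1 in R 4.3.3 fitted 1 mean per time to all 42 arrays (empirical Bayes with a variance trend, 21 residual degrees of freedom). Tests were two-sided, adjusted by Benjamini-Hochberg over all probe sets at a threshold of 0.05. An unadjusted p under 0.05 describes a list and calls nothing. Symbols come from the platform annotation, which can be old. The brightest probe set stands for a gene. The number of arrays, 2 per time, limits the precision. P-values measure the spread between pools of 3 birds, which may be partly technical.

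Genes named are called probe sets, members of the thyroid, clock and reported lists, the 10 highest and 10 lowest genes by limma's statistic among brighter genes with 1 sign at both hours, and up to 3 members of each other list by p. Others named, namely GNAS, GRIA3, SNAP25, PENK, CALR and POU1F1, were chosen after their values were seen. The members and the 25 lists were chosen with earlier results of these data known. No list was tested as a set. Array quality was compared by an exact permutation test over 4 and 4 arrays. The sources used here give no hybridisation batch, so batch and day cannot be told apart. The fit was tested on simulated data. Alternatives were 3 other scalings, no floor, no filter, a stricter filter of 21 arrays, no variance trend, a fit of only the arrays compared, the replicate number as a block and leaving out each array.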

Additional observations from a re-analysis of the deposited data

Results flagged for a closer look

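A single array stood far from the others in 2 of 56 groups of 4 arrays checked over 28 genes, and chance alone flags about 1 in 20 such groups. MRPL32 had a log2 signal of 4.93 on replicate 1 of time 26, against 5.65 to 5.72 on the other 3 first long-day arrays. SSX2IP had 5.26 on replicate 2 of time 30, against 4.83 to 4.89 on the other 3 first long-day arrays.

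The day difference of the called WDR61 probe set differed between hour 6 and hour 2 by -4.80 log2 by the test of the interaction. The other probe sets of the gene gave -0.03 and -0.26 log2. The later-hours difference less the morning difference was -1.98 log2 for DIO3 and 1.21 log2 for CGA.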

How the results depend on the processing

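With the values as deposited the morning comparison called 14 probe sets, with quantile normalization 2, with no filter 2, and 0 with no variance trend or with only the arrays compared, against 1 as reported. At hour 2 the 1 call became 2 with no floor and 0 with no variance trend or only the arrays compared. At hour 6 there were 7 calls with no filter, against 0. The interaction of day and hour gave 0 in place of 1 with quantile normalization, no floor, the stricter filter, no variance trend, only the arrays compared and the replicate block. The contrast of later hours with morning gave 1 with no floor and 0 with the other 3 scalings, either filter, no variance trend or the replicate block, against 2. Leaving out 1 array gave 0 calls (without time 6 replicate 1) to 5 calls (without time 2 replicate 2) between the mornings, 1 to 11 at hour 2, 0 to 8 at hour 6, 0 to 2 between the hours, 0 to 4 for the interaction, 15 to 22 over the later hours (18 as reported) and 0 to 3 for the contrast of later hours with morning. Replicate numbers did not pair arrays: deviations of same-numbered arrays correlated between -0.008 and 0.011 in 6 pairs of morning times. Under the replicate block LOC427439 kept its call (adjusted p = 0.00258). No called difference reversed sign under these settings. The number of arrays, 2 per time, limits the precision: the median 95% interval between the mornings reached 0.382 log2 to either side for bright probe sets and 0.941 log2 over all.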

Other observations

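Several probe sets with small p-values lie outside the rule for named genes and were chosen after their values were seen. A probe set of NLGN1, a synaptic adhesion protein, differed by -0.63 log2 between the mornings (limma adjusted p = 0.0980). There were also 2 probe sets without a symbol, at -0.80 and 1.48 log2 (adjusted p = 0.0626 each). With the values as deposited limma called all of these (adjusted p = 0.00623, 0.00735 and 0.0475). The probe set at 1.48 log2 was also called with quantile normalization (adjusted p = 0.0381). For CELF5, a regulator of splicing, and BOC, a receptor of hedgehog signalling, limma fitted -2.18 and -1.44 log2 (adjusted p = 0.201 each). BOC lay under the floor of 3.51 on all 4 first long-day arrays and CELF5 on 1, so these values depend on the floor. The named genes with the smallest p between hour 6 and hour 2 over both mornings were FAM219A (2.30 log2), ATG4A, a protease of autophagy (0.77 log2), and CLUH, an RNA-binding protein that sets mitochondrial distribution (-0.72 log2), with an adjusted p of 1 each.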
